A study of Bos taurus with 10 samples.

Results

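Heat shock proteins and their co-chaperones were followed in 2 fat depots of cattle: the small heat shock proteins, the HSPA (HSP70), HSPH, HSP90 and HSPD1/HSPE1 chaperones, the J-domain proteins of the DNAJA, DNAJB and DNAJC classes, and the BAG co-chaperones. Members were taken by symbol, without use of any measured value: names beginning with HSPA, HSPB, HSPD, HSPE or HSPH and a digit, with HSP90 or DNAJ, or with BAG and a digit, together with CRYAB and leaving out HSPBP genes. The rule found 65 of the 12674 genes listed, and all 65 passed the filter on low counts. The list was drawn up with earlier results of these data known.

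The RNA came from adult Angus-cross cattle, 5 heifers in all, for which the labels name no treatment. Intramuscular fat, the marbling between muscle fibres, and subcutaneous fat were each sequenced in 5 libraries, numbered 1 to 5, and a shared number was read as a shared animal. No age is stated beyond adult. Each library is whole tissue, so fewer cells of a type and less RNA per cell cannot be told apart.

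Chaperones bind unfolded or partly folded proteins and keep them from clumping. HSPA proteins work in cycles of ATP hydrolysis that are started by J-domain proteins and ended by nucleotide exchange factors such as the BAG proteins and HSPH1, while small heat shock proteins hold unfolded clients without ATP. Some members are made at all times (HSPA8, HSP90AB1), others are switched on by heat and other protein-damaging stress through the transcription factor HSF1 (HSPA1A, HSPA6, DNAJB1, HSPH1), and several small heat shock proteins are abundant in striated muscle.

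Library totals over the listed genes ran from 9392739 to 14836808 in intramuscular and from 13776094 to 17685678 in subcutaneous fat, lowest in intramuscular replicate 1. Markers of fat cells were present in every library: 14 of 18 had values, with summed levels of 6835 to 21411 CPM (the usual depth-normalised read count, here on TMM-scaled library sizes) in intramuscular and 22998 to 32337 CPM in subcutaneous fat. The lowest sum, 6835 CPM, was that of intramuscular replicate 1, and the next lowest was 13842.5 CPM in intramuscular replicate 3. Striated muscle markers with values numbered 9 of 62, since the common myofibre genes were not analysed here. Their summed level was 2484, 703, 1384, 408 and 528 CPM in intramuscular replicates 1 to 5 and 20.5, 21.2, 29.1, 61.7 and 23.3 CPM in subcutaneous replicates 1 to 5. Of these 9 genes, 4 had no count in any subcutaneous library. Intramuscular replicates 1 and 3 held the most muscle transcripts.

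In intramuscular fat 8 of the 65 genes were higher than in subcutaneous fat and 0 were lower (edgeR quasi-likelihood test, Benjamini-Hochberg adjusted p over all genes under 0.05). The 8 were the small heat shock protein HSPB7, the inducible chaperone HSPA1A, the J-domain genes DNAJA4, DNAJB1, DNAJB4, DNAJB5 and DNAJC21, and the co-chaperone BAG2. Over all 12521 genes tested 12.2% passed in either direction, 6.75% higher and 5.49% lower, so the 12.3% of members that passed is close to the background in number, while all of them were higher. At an unadjusted p under 0.05, 16 members were higher and 5 lower, against 14.5% and 16.2% of all genes. DESeq2 called 12 higher and 4 lower (10.6% and 9.29% of the same genes), and limma voom 8 higher and 0 lower (7.37% and 4.74%). With the animal as a block in edgeR 9 were higher and 0 lower, against 8.09% and 6.96% of all genes.

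The members' median log2 fold change was 0.17, against -0.04 over all genes tested, and 44 of 65 were positive (47.1% of all genes). The 5 values of one depot lay outside those of the other for 8 members (12.3%, against 12.9% of all genes). These were HSPB7, DNAJB4, DNAJB5, DNAJA4 and BAG2 on the higher side (5 genes, against 7.85% of all genes), and BAG4, DNAJC5 and HSPA12B on the lower side (3 genes, against 5.04%). The latter 3 did not pass the edgeR test, but BAG4 and HSPA12B were lower by DESeq2 (adjusted p = 0.0328 and 0.0146). By the adjusted p of the authors' deposited table, 12 of the 65 are higher and 4 are lower, where 10.8% and 9.24% of all listed genes are.

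**Figure D1:**
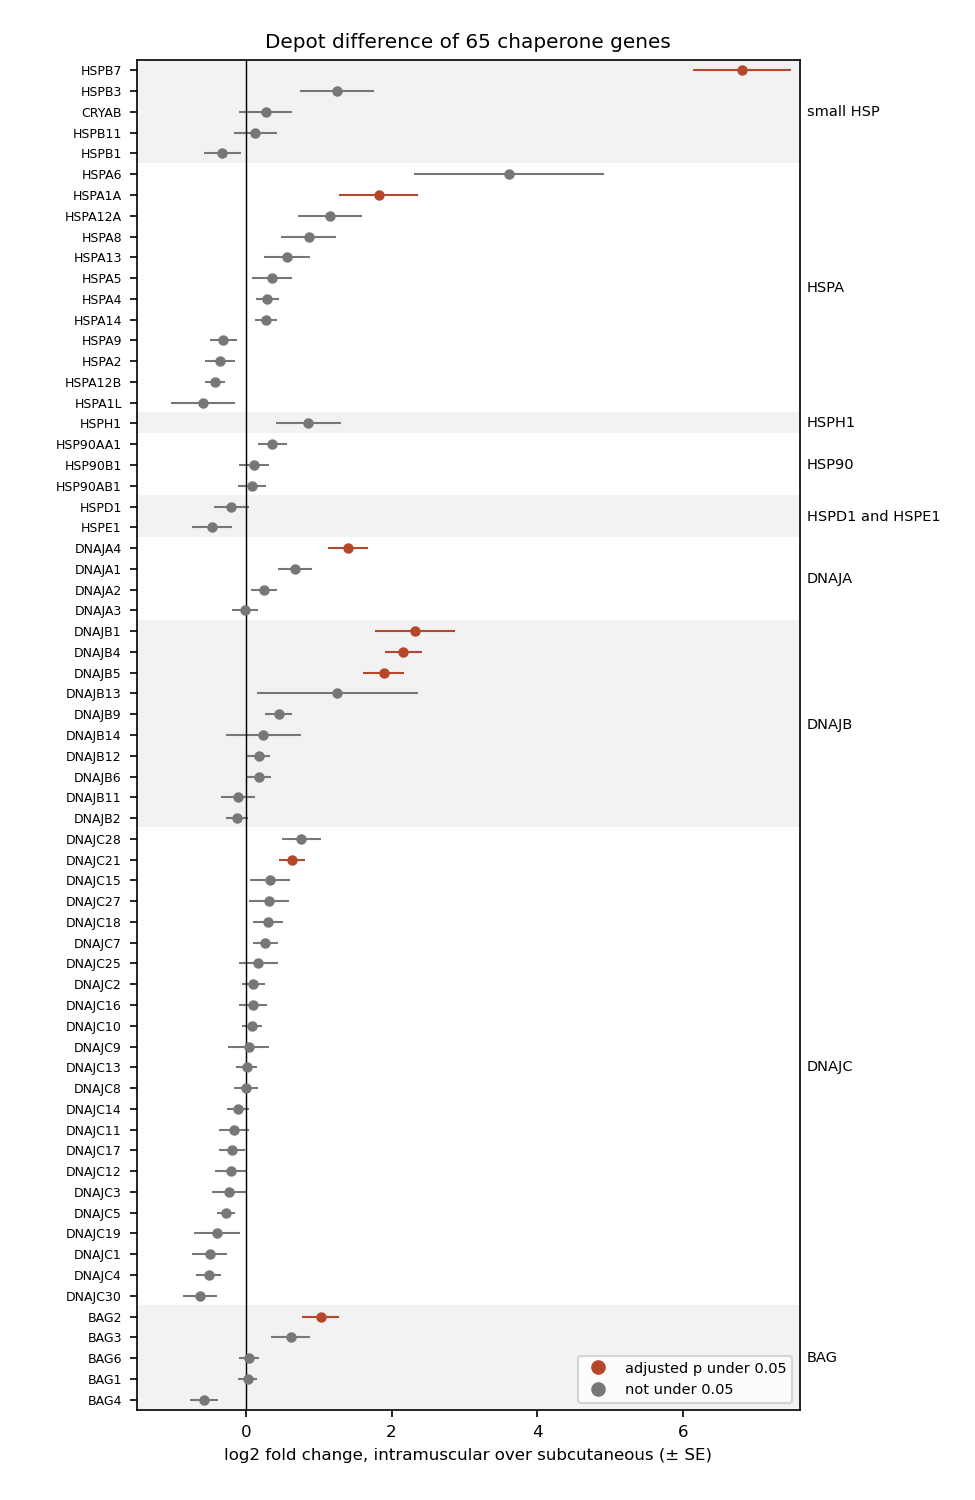
Log2 fold change (intramuscular over subcutaneous fat, horizontal axis, ± SE) of each of the 65 genes, grouped by family on the vertical axis, with the 8 genes past the threshold in red. HSPB7 stands at 6.81, and most DNAJC genes lie near 0.

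Summed over the 65 genes, chaperone reads reached 12304, 20212, 21991, 15369 and 19030.3 CPM in intramuscular and 8812, 8714, 11638, 15067 and 14079 CPM in subcutaneous replicates 1 to 5. The sum was higher in intramuscular fat in 5 of 5 pairs, and the depots overlapped, because intramuscular replicate 1 lay below subcutaneous replicates 4 and 5. HSPA1A alone made up 11.6, 38.9, 38.9, 19.6 and 25.8% of the summed member CPM in intramuscular and 9.56, 7.24, 7.80, 22.6 and 10.6% in subcutaneous replicates 1 to 5. These are shares of reads without scaling by gene length, and serve only to compare libraries. Without HSPA1A the sums were 12630.4 ± 1233 against 10208 ± 2098 CPM (mean ± SD, n = 5, intramuscular against subcutaneous).

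Levels of different genes within a library can be set against each other only per length of gene. On that scale (mean CPM per kb) HSPA1A came first in intramuscular fat at 2082, followed by HSPB1 at 1465, CRYAB at 993 and HSPA8 at 702. In subcutaneous fat HSPB1 came first at 1830, then CRYAB at 819, HSPA1A at 588 and HSPA8 at 386. The libraries of these neighbours overlapped in both depots, so their order is that of the means. HSP90AB1 (389 and 367) and HSP90AA1 (266 and 206) came next in both depots.

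**Figure D2:**
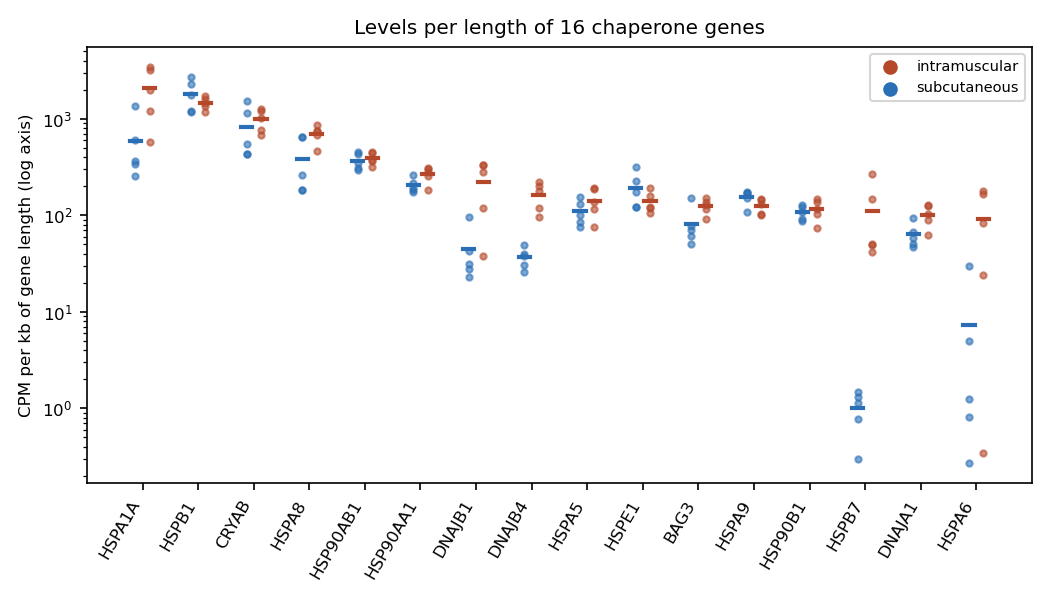
Level per length (CPM per kb, log axis) of the 16 chaperone genes that were highest in intramuscular fat, with a point for each of the 5 libraries of a depot and a bar at the mean. HSPA1A, DNAJB1 and HSPA6 spread widely between libraries of one depot, and HSPB7 separates the depots.

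Among the small heat shock proteins 1 of 5 was higher in intramuscular fat and 0 lower (20% called higher, against 6.75% of all genes). DESeq2 and limma voom gave the same counts, and 2 and 0 had an unadjusted p under 0.05. HSPB7, a small heat shock protein of heart and skeletal muscle that binds the actin cross-linker filamin C (ENSBTAG00000055045, chromosome 2, 136053155 to 136057934, plus strand), measured 748, 136, 410.4, 139 and 117 CPM in intramuscular replicates 1 to 5. In subcutaneous replicates 1 to 5 it measured 4.07, 3.66, 2.17, 0.822 and 3.13 CPM, from 14 to 63 counts a library. Every intramuscular library was thus far above every subcutaneous one, and replicates 1 and 3 were the highest. The mean was 112-fold higher (310.2 ± 273 against 2.77 ± 1.30 CPM, SD, n = 5), and the log2 fold change was 6.81 ± 0.67 (± SE, edgeR adjusted p = 7.62e-05).

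The 2 libraries with most HSPB7 were also those richest in the striated muscle markers, whose sums stand above. Without them, intramuscular replicates 1 and 3, the HSPB7 log2 fold change was 5.57 (edgeR adjusted p = 5.4e-05), and without replicate 1 alone it was 6.19. The lowest intramuscular library held 117 CPM and the highest subcutaneous one 4.07 CPM. Most of the marker sum in subcutaneous fat came from KLHL31 alone (29.0 ± 17.8 CPM there, SD, n = 5), a gene singled out after its values were seen, which did not pass between depots (edgeR adjusted p = 0.194). The other 8 markers summed to 3.81, 1.76, 1.30, 1.64 and 2.11 CPM in subcutaneous replicates 1 to 5, highest in replicate 1, as HSPB7 was. With KLHL31 included the sum was instead highest in subcutaneous replicate 4 (61.7 CPM), where HSPB7 was lowest (0.822 CPM). The part of muscle transcripts in the depot difference was not tested.

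HSPB3, another muscle small heat shock protein, measured 24.2, 6.09, 7.09, 13.9 and 5.14 CPM in intramuscular and 1.68, 5.64, 2.23, 7.17 and 6.87 CPM in subcutaneous replicates 1 to 5. Its highest value was again in intramuscular replicate 1, and the depots overlapped (log2 fold change 1.25 ± 0.51, edgeR adjusted p = 0.120). CRYAB, the alpha-B crystallin that guards intermediate filaments, was far more abundant, at 1798, 956, 1703, 1082 and 1443 CPM in intramuscular and 607, 609.8, 2171, 768 and 1609 CPM in subcutaneous replicates 1 to 5. Its highest library of all was subcutaneous replicate 3, and the depots overlapped over most of their range (log2 fold change 0.28 ± 0.36, edgeR adjusted p = 0.641).

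HSPB1, the widely expressed small heat shock protein that also binds actin, measured 1253 ± 187 against 1565 ± 569 CPM (log2 fold change -0.32 ± 0.25, edgeR adjusted p = 0.408). HSPB11, a component of the intraflagellar transport machinery despite its name, had at most 11.9 CPM in any library. HSPB2, HSPB6 and HSPB8 were not analysed here.

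**Figure D3:**
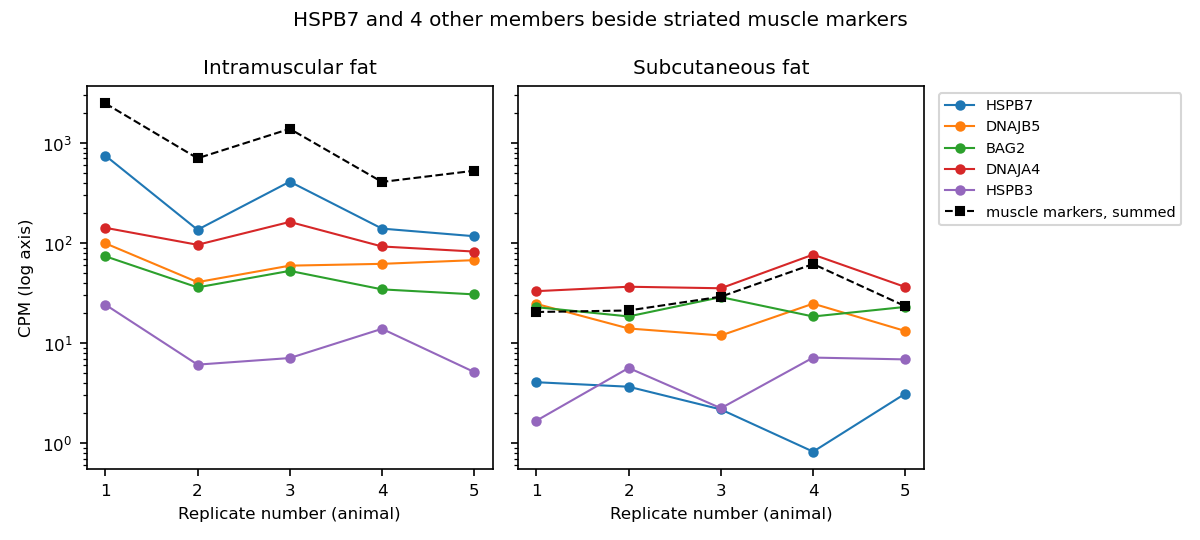
CPM (log axis) of HSPB7, DNAJB5, BAG2, DNAJA4 and HSPB3 in each library, by replicate number, beside the summed CPM of 9 striated muscle markers (dashed), with intramuscular fat on the left and subcutaneous fat on the right. Lines only join the points of 1 gene. HSPB7 is high in intramuscular replicates 1 and 3, as the marker sum is.

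In the HSPA family 1 of 12 members was higher and 0 lower (8.33% called higher, close to the 6.75% of all genes). The counts were 4 and 1 at an unadjusted p under 0.05, 3 and 1 by DESeq2, and 1 and 0 by limma voom. HSPA1A, the main stress-inducible member (ENSBTAG00000025441, chromosome 23, 27520317 to 27522790, minus strand), measured 1422, 7861, 8561, 3005 and 4905 CPM in intramuscular replicates 1 to 5. In subcutaneous replicates 1 to 5 it measured 842, 631, 907, 3401 and 1489.5 CPM. Intramuscular replicates 2, 3 and 5 lay above every subcutaneous library, whereas replicate 1 lay under subcutaneous replicates 4 and 5 and replicate 4 under subcutaneous replicate 4.

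By means HSPA1A was 3.54-fold higher in intramuscular fat, and higher in 4 of 5 pairs (log2 fold change 1.82 ± 0.54, edgeR adjusted p = 0.0447). The ratio within pairs 1 to 5 was 1.69, 12.5, 9.44, 0.884 and 3.29, so pair 4 went the other way. The call was close to the threshold. It was lost with the animal as a block (0.0590) and in 7 of 10 fits that left out 1 library, those without intramuscular replicate 2, 3 or 5 or subcutaneous replicate 1, 2, 3 or 5 (0.0677 to 0.118). Without subcutaneous replicate 4 the log2 fold change was 2.41 (0.0125). Cattle carry near-identical copies of this gene, and reads shared between copies could have been split or dropped in counting.

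HSPA6, a member that is almost silent without stress, varied most between libraries. It measured 0.655, 321, 344, 46.5 and 158 CPM in intramuscular and 0.516, 2.42, 1.55, 56.7 and 9.59 CPM in subcutaneous replicates 1 to 5. Intramuscular replicate 1 rested on 7 counts and replicate 3 on 4708, a range of 525-fold within one depot. Subcutaneous replicate 4 had 965 counts where replicate 1 had 8. The depots overlapped and the log2 fold change of 3.61 ± 1.30 did not pass (edgeR adjusted p = 0.0838). It passed with intramuscular replicate 1 (3.93, 0.0484) or subcutaneous replicate 4 (5.63, 0.0226) left out and by DESeq2 (3.63, 0.0409). It did not pass by limma voom (adjusted p = 0.257) or with the animal as a block in edgeR (0.0623). Of 10 edgeR fits that left out 1 library it passed in only those 2, with adjusted p up to 0.169.

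HSPA8, the constitutive cytosolic member, measured 1081, 1740.0, 1559, 1728 and 2023 CPM in intramuscular and 606, 428, 425, 1519.6 and 1493 CPM in subcutaneous replicates 1 to 5. Subcutaneous replicates 4 and 5 lay within the intramuscular range, and replicates 1 to 3 below all of it (log2 fold change 0.86 ± 0.38, edgeR adjusted p = 0.142, or 0.0466 with the animal as a block). The ratio of HSPA1A to HSPA8 CPM, not scaled by length, was 1.32, 4.52, 5.49, 1.74 and 2.42 in intramuscular and 1.39, 1.48, 2.14, 2.24 and 0.998 in subcutaneous replicates 1 to 5. It was highest in intramuscular replicates 2 and 3, the libraries with most HSPA6.

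HSPA5 and HSPA9, which work in organelles, ranged by at most 2.55-fold between libraries of 1 depot. HSPA5, the chaperone of the endoplasmic reticulum also called BiP, measured 361 ± 125 against 280.4 ± 83.1 CPM, and HSPA9, the mitochondrial member mortalin, 333 ± 59.0 against 413 ± 73.3 CPM (SD, n = 5). Their log2 fold changes were 0.36 ± 0.27 and -0.31 ± 0.18, with edgeR adjusted p of 0.387 and 0.271.

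Other HSPA genes differed in direction. HSPA12A, a distant member of the family, measured 16.3, 28.9, 25.1, 37.1 and 60.2 CPM in intramuscular and 32.1, 17.6, 7.95, 10.9 and 6.80 CPM in subcutaneous replicates 1 to 5, with subcutaneous replicate 1 above 3 intramuscular libraries (log2 fold change 1.15 ± 0.44, edgeR adjusted p = 0.0967, and 0.0174 without that library). On the table's coordinates it overlaps ENO4 on the opposite strand by 814 bases. HSPA12B, its endothelial relative, measured 84.7, 82.4, 76.1, 102 and 99.8 CPM in intramuscular and 129, 117, 123, 120.0 and 109 CPM in subcutaneous replicates 1 to 5, without overlap between depots (log2 fold change -0.43 ± 0.13, edgeR adjusted p = 0.0547). By DESeq2 HSPA12B was lower (adjusted p = 0.0146). Beside it, 4 of 11 endothelial markers were lower and 0 higher by edgeR, against 5.49% and 6.75% of all genes. Of the 11, 2 had positive log2 fold changes, KDR (0.06) and TEK (0.30), and 9 had negative ones. Their summed levels were 1943 to 2502 CPM in intramuscular and 2450 to 4505 CPM in subcutaneous fat. The part of vessel cells in the HSPA12B values was not tested. HSPA2, best known from the testis (-0.36 ± 0.21, edgeR adjusted p = 0.265), and the low HSPA1L (-0.59 ± 0.44, edgeR adjusted p = 0.39) had negative log2 fold changes.

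HSPH1, which acts as an exchange factor for HSPA proteins and also holds unfolded clients, also varied between libraries. It measured 43.8, 199.6, 171, 108 and 158 CPM in intramuscular and 31.9, 50.9, 56.9, 169 and 67.1 CPM in subcutaneous replicates 1 to 5. Replicate 1 was the lowest of both depots, and subcutaneous replicate 4 lay in the upper part of the intramuscular range. The log2 fold change was 0.86 ± 0.45 (edgeR adjusted p = 0.210), and 1.40 without subcutaneous replicate 4 (0.0365).

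Of the 3 HSP90 genes none passed in either direction by edgeR, DESeq2 or limma voom, and 0 had an unadjusted p under 0.05. HSP90AA1, the inducible cytosolic form, measured 1094, 1818, 1716, 1527 and 1863 CPM in intramuscular and 1040.5, 1306, 1172, 1593 and 1109.8 CPM in subcutaneous replicates 1 to 5. Intramuscular replicate 1 was again the lowest of its depot and subcutaneous replicate 4 the highest of its own (log2 fold change 0.37 ± 0.20, edgeR adjusted p = 0.236). HSP90AB1, the constitutive form, had a log2 fold change of 0.08 ± 0.19, and HSP90B1, the form of the endoplasmic reticulum, 0.11 ± 0.20 (edgeR adjusted p = 0.800 and 0.751).

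HSPD1 and HSPE1, which together form the mitochondrial folding chamber, had mean levels of 235 ± 80.2 against 269.6 ± 48.7 CPM for HSPD1 and 133 ± 34.1 against 183 ± 77.4 CPM for HSPE1 (SD, n = 5). Neither passed, and 0 of the 2 had an unadjusted p under 0.05 (log2 fold changes -0.20 ± 0.24 and -0.46 ± 0.27, edgeR adjusted p = 0.603 and 0.267). Their gene models overlap by 959 bases on opposite strands of chromosome 2, so reads there cannot be assigned where strand was not used.

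**Figure D4:**
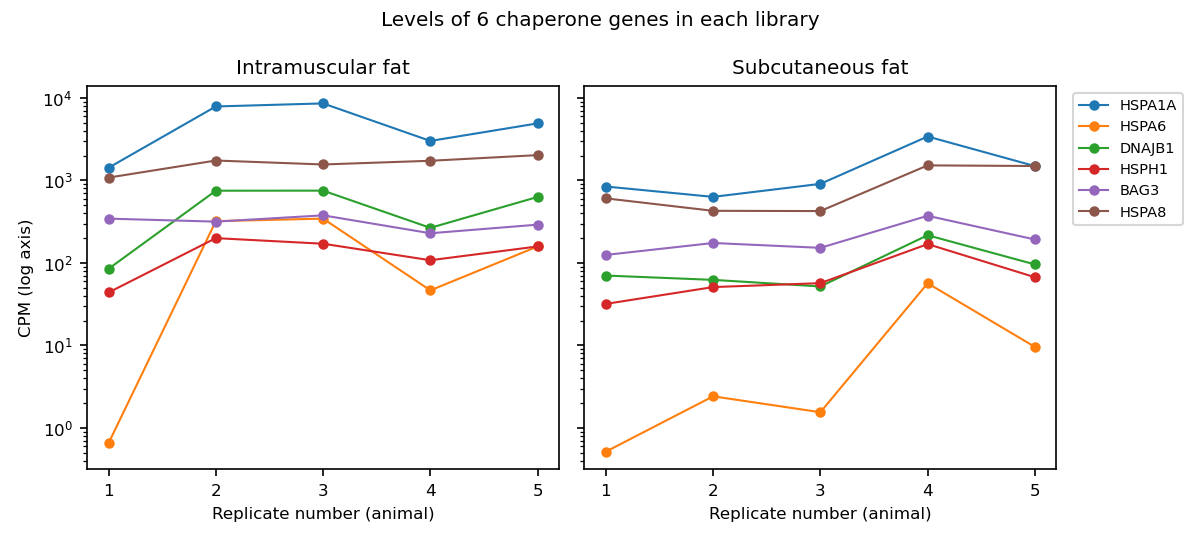
CPM (log axis) of HSPA1A, HSPA6, DNAJB1, HSPH1, BAG3 and HSPA8 in each library, by replicate number, with intramuscular fat on the left and subcutaneous fat on the right. Lines only join the points of 1 gene. HSPA6 falls to 0.655 CPM in intramuscular replicate 1, and all 6 genes have their highest subcutaneous value in replicate 4.

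The J-domain proteins of the DNAJA and DNAJB classes, with 4 and 10 members, held 4 of the 8 genes past the threshold. In the DNAJB class 3 of 10 members were higher and 0 lower (30% called higher, against 6.75% of all genes). The counts were 4 and 0 at an unadjusted p under 0.05, and 3 and 0 by DESeq2 and by limma voom. DNAJB4 (ENSBTAG00000021752, chromosome 3, 66664210 to 66707306, minus strand), a partner of HSPA proteins, measured 120.2, 281, 258, 152 and 224 CPM in intramuscular and 50.3, 62.0, 32.5, 47.8 and 38.8 CPM in subcutaneous replicates 1 to 5. The depots were fully apart, with a 4.47-fold difference of means (log2 fold change 2.16 ± 0.26, edgeR adjusted p = 0.000268). Unlike HSPB7, DNAJB4 was lowest in intramuscular replicate 1, where muscle markers were highest, but it measured 258 CPM in replicate 3, the next richest in those markers. Its log2 fold change was 2.24 without intramuscular replicates 1 and 3. Every intramuscular library held more of the muscle markers than any subcutaneous one, and the part of muscle transcripts in DNAJB4 was not tested.

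DNAJB1, the inducible J-domain partner of HSPA1A (ENSBTAG00000016874, chromosome 7, 11269404 to 11273083, plus strand), measured 84.8, 749.7, 751, 266 and 630.0 CPM in intramuscular and 70.3, 62.3, 51.8, 216 and 95.8 CPM in subcutaneous replicates 1 to 5. Its order over the intramuscular libraries was that of HSPA1A and HSPA6, from replicate 3 through 2, 5 and 4 down to 1. The log2 fold change was 2.32 ± 0.55 (edgeR adjusted p = 0.0184, and 0.0535 without intramuscular replicate 3). The ratio within pairs 1 to 5 was 1.21, 12.0, 14.5, 1.23 and 6.58: pairs 1 and 4 differed little and the others strongly.

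DNAJB5 (ENSBTAG00000018318, chromosome 8, 59277670 to 59286526, plus strand) measured 99.4, 40.7, 59.4, 61.9 and 67.4 CPM in intramuscular and 24.7, 14.0, 11.9, 24.8 and 13.2 CPM in subcutaneous replicates 1 to 5, again without overlap. Its highest library was intramuscular replicate 1 and its log2 fold change was 1.89 ± 0.28 (edgeR adjusted p = 0.00123), or 1.68 without intramuscular replicates 1 and 3 (0.0108). DNAJB9, a J-domain protein of the endoplasmic reticulum, had a log2 fold change of 0.45 ± 0.18 (edgeR adjusted p = 0.118). DNAJB13, a gene of motile cilia, had at most 3.11 CPM in any library, with a log2 fold change of 1.26 ± 1.10 (edgeR adjusted p = 0.466).

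In the DNAJA class 1 of 4 members was higher and 0 lower (25% called higher, against 6.75% of all genes). The counts were 2 and 0 at an unadjusted p under 0.05 and by DESeq2, and 1 and 0 by limma voom. DNAJA4 (ENSBTAG00000015942, chromosome 21, 30652951 to 30669870, plus strand) measured 142, 96.0, 163, 92.4 and 82.2 CPM in intramuscular and 33.0, 36.6, 35.3, 76.7 and 36.3 CPM in subcutaneous replicates 1 to 5. The gap between depots was narrow because subcutaneous replicate 4 stood at 76.7 CPM, where the next library of its depot had 36.6 CPM. The log2 fold change was 1.40 ± 0.27 (edgeR adjusted p = 0.00709), and 1.04 without intramuscular replicates 1 and 3 (0.0750). DNAJA1, the major cytosolic J-domain protein, measured 90.1, 151, 129.7, 185 and 182 CPM in intramuscular and 84.0, 73.2, 67.9, 137 and 98.4 CPM in subcutaneous replicates 1 to 5. It was higher in 5 of 5 pairs, but the depots overlapped (log2 fold change 0.68 ± 0.24, edgeR adjusted p = 0.0740, or 0.0309 with the animal as a block). It passed with intramuscular replicate 1 (0.0395) or subcutaneous replicate 4 (0.0298) left out.

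The DNAJC class is the most varied, with members in translation, splicing, mitochondria and vesicle traffic. Of its 23 members 1 was higher and 0 lower (4.35% called higher, against 6.75% of all genes). The counts were 2 and 3 at an unadjusted p under 0.05, 2 and 2 by DESeq2, and 1 and 0 by limma voom. The median log2 fold change of the class was 0.01. DNAJC21, which takes part in ribosome assembly (ENSBTAG00000015648, chromosome 20, 39183189 to 39214779, minus strand), measured 62.8 ± 7.67 against 40.5 ± 9.89 CPM (log2 fold change 0.63 ± 0.18, edgeR adjusted p = 0.0403). Its call was lost in 8 of 10 fits that left out 1 library, all but those without subcutaneous replicates 3 and 5, with adjusted p up to 0.109.

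Among other DNAJC genes the log2 fold changes farthest from 0 were those of DNAJC28 (0.76 ± 0.27, edgeR adjusted p = 0.0800) and the mitochondrial DNAJC30 (-0.63 ± 0.23, 0.0861). DNAJC5, the cysteine string protein of secretory vesicles, lay between 94.3 and 106 CPM in intramuscular and between 111 and 137 CPM in subcutaneous fat, without overlap (log2 fold change -0.27 ± 0.12, 0.155). It did not pass despite the separation. DESeq2 called DNAJC28 higher (adjusted p = 0.0372) and DNAJC30 and DNAJC4 lower (0.0462 and 0.0436). The remaining DNAJC genes spanned -0.51 to 0.33 on the log2 scale.

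**Figure D5:**
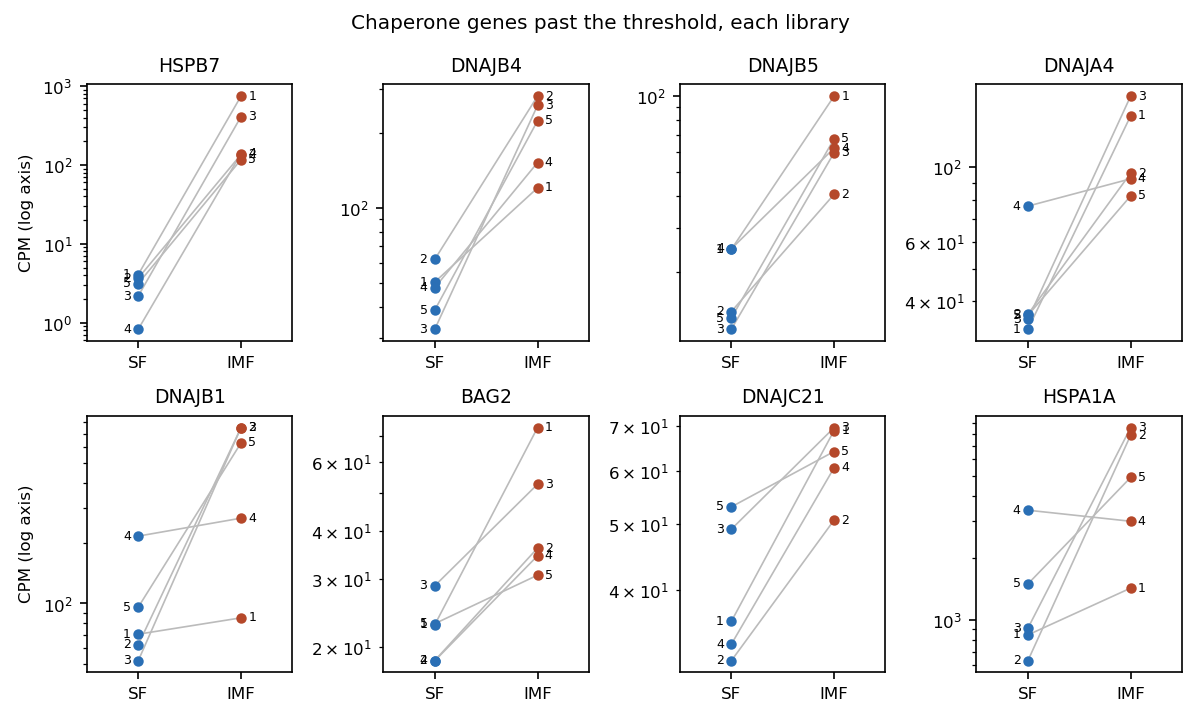
CPM (log axis, a separate scale in each panel) of the 8 genes past the threshold in every library, with subcutaneous (SF) and intramuscular (IMF) libraries of the same replicate number joined by a line and marked with that number. Every line rises except that of pair 4 for HSPA1A, where 3401 CPM in subcutaneous fat stands against 3005 CPM.

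The BAG proteins release nucleotide from HSPA proteins and tie them to the proteasome or to autophagy. In this family 1 of 5 members was higher and 0 lower (20% called higher, against 6.75% of all genes). The counts were 2 and 1 at an unadjusted p under 0.05, 1 and 1 by DESeq2, and 1 and 0 by limma voom. BAG2, an inhibitor of the chaperone-linked ubiquitin ligase STUB1 (ENSBTAG00000005355, chromosome 23, 3040820 to 3050862, minus strand), measured 73.8, 36.0, 52.7, 34.4 and 30.7 CPM in intramuscular and 22.8, 18.5, 28.8, 18.4 and 23.0 CPM in subcutaneous replicates 1 to 5. The depots were apart, and intramuscular replicates 1 and 3 were highest, as for HSPB7. The log2 fold change was 1.03 ± 0.25 (edgeR adjusted p = 0.0199, and 0.0602 without intramuscular replicate 3), and 0.59 without intramuscular replicates 1 and 3 together (0.154).

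BAG3, which works with small heat shock proteins in the autophagy of damaged filaments, measured 344, 316, 377, 229 and 291 CPM in intramuscular and 125, 174, 152, 372 and 192 CPM in subcutaneous replicates 1 to 5. Subcutaneous replicate 4 lay among the highest of all 10 libraries while the other 4 subcutaneous libraries lay below every intramuscular one. The log2 fold change was 0.62 ± 0.27 (edgeR adjusted p = 0.144), and 0.95 without that library (0.0123). BAG4 measured 11.5, 16.2, 21.2, 19.1 and 17.3 CPM in intramuscular and 24.8, 23.7, 25.5, 30.8 and 22.5 CPM in subcutaneous replicates 1 to 5, the depots apart by a narrow gap (log2 fold change -0.58 ± 0.19, edgeR adjusted p = 0.0635). By DESeq2 BAG4 was lower (adjusted p = 0.0328). BAG1 and BAG6, with log2 fold changes of 0.02 ± 0.13 and 0.04 ± 0.14, had the smallest differences of the family.

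Subcutaneous replicate 4 was the highest library of its depot for 21 of the 65 members (32.3%), against 17.2% of all genes tested. Intramuscular replicate 1 was the lowest of its depot for 21 of 64 members without ties (32.8%), close to its share of all genes (29.0%). With both libraries left out, a choice made after these levels were seen, 11 members were higher and 1 lower, against 4.42% and 3.07% of all 12516 genes in that fit. Because the choice followed the members' own levels, it favours higher calls among them. The shares of all genes are therefore not a like background for these counts. BAG3, DNAJA1, DNAJB9, HSPA6 and HSPH1 then joined the higher genes, DNAJC4 was lower, and BAG2 and DNAJC21 no longer passed. Summed immediate early genes, which respond within minutes to stimulation of cells, were 4526, 9667, 6466, 9429 and 16756 CPM in intramuscular and 8324, 5394, 3093, 6573 and 9194 CPM in subcutaneous replicates 1 to 5. Their order was not that of HSPA1A, being highest in intramuscular replicate 5 and subcutaneous replicate 5. Within intramuscular fat both were lowest in replicate 1. Of the 21 immediate early genes tested, 2 were higher and 0 lower by edgeR, against 6.75% and 5.49% of all genes. With the animal as a block 4 were higher and 0 lower, against 8.09% and 6.96%. Log2 fold changes were positive for 19 of them (47.1% of all genes). The part of these genes in the results was not tested.

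Among genes that work with these chaperones but are not members, 104 in 6 lists were tested, and 4 were higher and 5 lower (8.65%, against 12.2% of all genes). The edgeR counts of each list stand against 6.75% higher and 5.49% lower over all genes. With the animal as a block 5 were higher and 7 lower, and the 3 genes added are named for that call, after it was seen. The heat shock factors and the factor-binding gene HSBP1 gave 0 higher and 0 lower of 4 (1 and 0 at an unadjusted p under 0.05 and by DESeq2, 0 and 0 by limma voom). HSF1, the master regulator of the heat shock response, measured 137 ± 22.1 against 108 ± 29.4 CPM (log2 fold change 0.34 ± 0.19, edgeR adjusted p = 0.242), and HSF2 24.1 ± 2.74 against 17.2 ± 1.60 CPM (0.48 ± 0.16, 0.0634). Of cytosolic co-chaperones 2 of 32 were higher and 0 lower (7 and 1 at an unadjusted p under 0.05 and by DESeq2, 2 and 0 by limma voom, 2 and 1 in the blocked fit), and the list's median log2 fold change was 0.24. The lower gene under the block, CDC37, an adaptor of kinases to HSP90, was lower in all 5 pairs (log2 fold change -0.71 ± 0.42, edgeR adjusted p = 0.265 without and 0.0409 with the block). STIP1, the adaptor that hands clients from HSPA to HSP90, measured 179, 171, 161, 159.8 and 191 CPM in intramuscular and 105, 80.0, 61.4, 116 and 128 CPM in subcutaneous replicates 1 to 5. Its depots did not overlap (log2 fold change 0.82 ± 0.19, edgeR adjusted p = 0.0173). CHORDC1, an HSP90 co-chaperone, had a log2 fold change of 0.74 ± 0.21 (edgeR adjusted p = 0.0396), a call kept in 1 of 10 fits with a library left out, that without subcutaneous replicate 4.

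The cytosolic chaperonin and prefoldin subunits, which fold actin and tubulin, gave 0 higher and 0 lower of 17 by edgeR, DESeq2 and limma voom, 0 of them at an unadjusted p under 0.05, with a median of 0.02. In the endoplasmic reticulum 0 of 30 folding and stress genes were higher and 3 lower (3 and 4 at an unadjusted p under 0.05, 2 and 3 by DESeq2, 0 and 3 by limma voom), with a median of -0.08. PDIA5, a disulfide isomerase, measured 12.4 ± 2.19 against 24.9 ± 3.86 CPM (-1.004 ± 0.19, edgeR adjusted p = 0.00641), and was lower in all 5 pairs. SDF2L1, a partner of HSPA5, and the disulfide isomerase TXNDC5 had log2 fold changes of -1.53 ± 0.41 and -0.59 ± 0.18 (edgeR adjusted p = 0.0291 and 0.0465), which passed in 5 and 2 of 10 fits with a library left out.

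Mitochondrial folding and protease genes gave 1 higher and 2 lower of 15 by edgeR, DESeq2 and limma voom (1 and 5 at an unadjusted p under 0.05), with a median of -0.38. TRAP1, the mitochondrial HSP90, measured 57.2 ± 17.2 against 106 ± 19.8 CPM (-0.88 ± 0.22, edgeR adjusted p = 0.0236), with adjusted p of 0.0563 and 0.0569 without intramuscular replicate 2 and subcutaneous replicate 3. The protease HTRA2 had a log2 fold change of -0.69 ± 0.15 (0.0131) and the protease subunit CLPX one of 0.59 ± 0.15 (0.0274, passing in 6 of 10 fits with a library left out). In the list on chaperone-assisted autophagy 1 of 7 was higher and 0 lower (3 and 2 at an unadjusted p under 0.05, 2 and 0 by DESeq2 and by limma voom, 2 and 1 with the animal as a block), with a median of 0.10. Under the block UBQLN2 joined the higher side (log2 fold change 1.06 ± 0.33, edgeR adjusted p = 0.0512 without and 0.0386 with the block) and VPS18 the lower (-0.56 ± 0.19, 0.0728 and 0.0491). The gene higher without the block was FBXO32, a ubiquitin ligase of muscle atrophy, at 37.2, 9.76, 31.4, 8.61 and 6.22 CPM in intramuscular and 1.10, 1.10, 1.99, 0.352 and 0.612 CPM in subcutaneous replicates 1 to 5. Like HSPB7, it was highest in intramuscular replicates 1 and 3 (log2 fold change 4.16 ± 0.61, edgeR adjusted p = 0.00121), and the part of muscle transcripts in it was not tested.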

How the data were processed

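Libraries were dUTP-marked and paired-end, from TRIzol-extracted total RNA, per the labels' protocols. The submitters' processing notes name DESeq2 1.42.0, featureCounts 2.0.2, STAR 2.7.11a and Trimmomatic 0.39. No genome build or strand setting is given in those sources, so positions are as in the deposited table. The authors deposited raw counts per gene and library, a gene length in bases, the authors' mean count per depot and base mean (signal values), a log2 fold change with its error, a Wald score, and a p-value with its adjusted value.

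From the counts, edgeR 4.0.16 (R 4.3.3) was fitted over the whole table with TMM scaling, filterByExpr on depot, which kept 12521 genes and removed 153, and the quasi-likelihood test without a block. Benjamini-Hochberg adjustment ran over all genes tested. On simulated counts for this comparison (12372 genes) the fit called 29.6% of genes changed 2-fold and 85.9% of those changed 4-fold, and 5% of its calls were unchanged genes. Only 98 and 99 genes were changed there, where 1533 passed in the data, and libraries were drawn without pairing by animal. The rates need not be those of the real fit. Replicate numbers were read as pairing the depots, because the design names the same 5 heifers, though the labels give no animal identity. Same-numbered libraries deviated together (correlations across genes of 0.102 to 0.237), and all 10 libraries correlated best with their own number. The p-values measure the spread between these 5 animals per depot.

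The members and the gene lists were chosen with earlier results of these data known. Named members were all past the threshold, 20 fixed members with values and the 2 members of largest change in each family that did not pass, 32 in all; HSPA12B, HSPB11, BAG1, BAG6, DNAJC4 and DNAJC5 were named after their values were seen. Up to 4 called genes were named per pathway list, and HSF1 and HSF2 were added after their values were seen. Alternatives were DESeq2 1.42.0, its scaling, no filter, limma 3.58.1 voom, a replicate block and left-out libraries. No sequences of the members were used here.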

Additional observations from a re-analysis of the deposited data

Results flagged for a closer look

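Of 64 sets of 5 libraries (32 named members in 2 depots), 5 had 1 library far from the other 4 by Dixon's criterion. Chance gives about 1 in 20 only where values are normally distributed. The criterion was applied to CPM and not to log values, and its chance rate on CPM was not tested. Whether 5 of 64 exceeds chance is therefore not known. In all 5 sets the library was subcutaneous replicate 4, which stood highest, and no intramuscular library was marked. The genes were BAG3 (372 CPM), DNAJA4 (76.7 CPM), DNAJB1 (216 CPM), HSPA6 (56.7 CPM) and HSPH1 (169 CPM). The gap to the next library took 72.8%, 91.9%, 73.3%, 83.8% and 74.3% of the whole subcutaneous range, in that order. The 5 genes are not independent, since they come from 1 library. In the same library HSPA1A was also highest of its depot, at 3401 CPM, without meeting the criterion.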

How the results depend on the processing

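All 8 members past the threshold kept it with DESeq2, with DESeq2's scaling in edgeR, without a filter and with limma voom, and no named member changed direction under any of these. With the replicate block (animal) 9 members were higher and 0 lower, with DNAJA1 and HSPA8 added and HSPA1A lost. Among pathway genes CDC37, UBQLN2 and VPS18 also passed with it. The block changed no other call among the named genes, and over all genes it gave 1013 higher and 871 lower. DESeq2 called 4 members lower (BAG4, DNAJC4, DNAJC30 and HSPA12B), and 1369 genes higher and 1171 lower over the table.

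Leaving out each library in turn gave 4 to 11 members higher and 0 lower in each fit, with 494 to 1008 genes higher and 263 to 887 lower. The fewest members, 4, came without intramuscular replicate 3 (DNAJA4, DNAJB4, DNAJB5 and HSPB7), and the most without subcutaneous replicate 4. HSPB7, DNAJB4, DNAJB5 and DNAJA4 passed in all 10 such fits, BAG2 and DNAJB1 in 9, HSPA1A in 3 and DNAJC21 in 2. Without intramuscular replicates 1 and 3 together 4 members were higher (DNAJB1, DNAJB4, DNAJB5 and HSPB7), and 306 genes were higher and 67 lower. Without intramuscular replicate 1 and subcutaneous replicate 4, 11 members were higher and 1 lower, and 553 genes were higher and 384 lower. These libraries were chosen after seeing the members' own levels, which favours higher calls among the members. In that fit HSPD1 changed sign, to 0.0012 on the log2 scale (down to -0.34 with 1 library left out). These fits use fewer samples, and the cause of the shifts was otherwise not tested. Counts were few for HSPA6 in intramuscular replicate 1 (7) and subcutaneous replicate 1 (8), and for DNAJB13, with 0 counts in 3 libraries.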
